A study of Mus musculus with 18 samples.

Results

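Chemokine and chemoattractant receptors are the surface proteins with which a macrophage senses where to go, and 8 of them are described here in bone marrow-derived macrophages (BMDMs): *Ccr1*, *Ccr2*, *Cx3cr1*, *Cxcr4*, *Fpr1*, *Fpr2*, *Cmklr1* and *Ccrl2*. They were taken by symbol from the 16314 gene symbols of the count table, in a list made with earlier results of these data known. All 8 passed the filter on low counts, among 12021 genes tested. Bulk RNA-seq was carried out on BMDMs of mice with a knockout of *Prep*, the gene of prolyl endopeptidase (PREP, a peptidase that cleaves small peptides). Prep-/- mice were compared with their Prep+/- littermates on a C57BL6/J background. The controls therefore carried 1 working copy of *Prep* and were not wild type. Each comparison of genotypes is of no working copy against 1 working copy. Femoral marrow cells of both genotypes were cultured with 50 ng/ml of M-CSF over 7 days and then left without stimulus (M0), or given LPS at 50 ng/ml (M1), or IL-4 and IL-13 at 20 ng/ml each (M2), for 24 h. Each of the 6 groups, Prep+/- M0, Prep+/- M1, Prep+/- M2, Prep-/- M0, Prep-/- M1 and Prep-/- M2, held 3 biological replicates. The knockout was of the whole animal and not of macrophages alone, so it was present in marrow and culture alike. The age of the donors, and whether 1 mouse gave the cells of all 3 states, are not given in the sources used here.

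All 8 receptors span the membrane 7 times. CCR1 and CCR2 bind inflammatory CC chemokines, and CCR2 draws monocytes out of the marrow and into inflamed tissue. CX3CR1 binds fractalkine and marks patrolling monocytes and many tissue macrophages, and CXCR4 binds CXCL12 and holds leukocytes in the marrow. FPR1 and FPR2 sense N-formyl peptides released by bacteria and damaged mitochondria, and FPR2 also takes annexin A1, serum amyloid A and cathelicidin. CMKLR1 is the signalling receptor for chemerin, whereas CCRL2 binds chemerin without signalling and presents it to CMKLR1 on other cells. LPS is known to raise formyl peptide receptors and CCRL2 in macrophages and to lower CCR2.

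The libraries held 19068237 to 22598279 counts and 13096 to 13807 genes above 0. *Prep* itself lay between 551 and 900 normalized counts in the 9 Prep+/- libraries and between 31.3 and 68.1 in the 9 Prep-/- libraries, so the labels of genotype hold in all 18. A normalized count is a count divided by the relative size of its library, where size is the total of the tested genes times its TMM factor (trimmed mean of M-values, 0.818 to 1.20). Replicate 3 of Prep-/- M0 and replicate 3 of Prep-/- M2 stood apart from the other 2 libraries of their groups: the chi-square per gene between the counts of 2 replicates was 108 to 117 in the 4 pairs that hold them and 9.59 to 47.9 in the 14 other pairs. Of the 8 macrophage markers, 8 were in the table, with a summed level of 10000 to 48200 CPM in every library (a count scaled to the size of its library). Of the markers of other cells, *Cd3d* (T cells) was at 0 in 16 libraries and *Ms4a1* (B cells) at 0 in 17. *Cd4* (0.17 to 29.6 CPM) and *Cd79b* (0.911 to 11.5 CPM), by contrast, were above 0 in all 18. *Ly6g* (neutrophils) was at 0 in 13 and at most 0.142 CPM. Of the other granulocyte markers, *Ngp*, *Ltf*, *S100a8*, *S100a9* and *Mmp8* were above 0 in all 18, at 2.99 to 152 CPM. *Mpo*, *Elane*, *Prtn3*, *Ctsg* and *Retnlg* were each at 0 in at least 1 library and at most 1.23 CPM. In these bulk libraries, fewer cells that express a gene and less RNA per cell cannot be told apart.

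Each comparison was made with edgeR's quasi-likelihood test over the 12021 genes, and a gene was called higher or lower at a Benjamini-Hochberg adjusted p under 0.05 together with a fold change over 1.5. Adjusted p values below are from that test unless another is named, and each log2 fold change is followed by its standard error (SE) or 95% interval where it bears on a comparison of groups.

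Of the 8 receptors, 7 were called in at least 1 state between the genotypes, against a background of 47% of all genes tested, and *Fpr2* was the exception. In M0, *Ccr2*, *Ccrl2*, *Cxcr4* and *Cmklr1* were higher and *Ccr1* and *Cx3cr1* lower in Prep-/- BMDMs, 6 of 8 against a background of 32.6% of all genes tested (15.4% higher and 17.2% lower). In M1, *Ccr2*, *Ccrl2* and *Cxcr4* were higher and *Fpr1* lower, 4 of 8 against 22.5% of all genes (12.3% higher, 10.2% lower). In M2, *Ccrl2*, *Cxcr4* and *Cmklr1* were higher and *Cx3cr1* lower, 4 of 8 against 16.2% (6.37% higher, 9.82% lower). *Ccrl2* and *Cxcr4* were higher in all 3 states, none was lower in all 3, and none was called in opposite directions in different states. Over the 8 receptors the median log2 effect of the knockout was 0.91, 0.02 and -0.23 for M0, M1 and M2, beside 0.02, 0.04 and 0.03 over all genes tested.

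Cell type markers moved between the genotypes as well. In M0 the macrophage list summed to 19000 to 22400 CPM in Prep+/- and 30400 to 48200 CPM in Prep-/- libraries, with 6 of 8 markers called higher, and the granulocyte list to 70.5 to 92 against 126 to 186 CPM, with 4 of the 6 tested called higher. In M1 the macrophage list was lower in Prep-/- (45800 to 47200 against 31000 to 37000 CPM for Prep-/-, 1 of 8 called higher and 1 lower), and in M2 higher (10000 to 12200 against 13900 to 19600 CPM, 2 of 8 called higher). The T cell list, with 3 of 6 markers in the table, summed to 0.986 to 1.28 against 8.26 to 29.8 CPM in M0 and to 0.675 to 1.35 against 2.27 to 3.27 CPM in M1, with overlap in M2. Over all libraries its markers reached at most 29.6 CPM (*Cd4*), 4.11 CPM (*Cd2*) and 0.0479 CPM (*Cd3d*). Of its 2 tested markers, 1 was called higher in M0 and in M1, and in M2 1 was higher and 1 lower. The B cell list, with 3 of 5 in the table, summed to 3.01 to 4.79 against 8.66 to 11.5 CPM in M0 and to 2.06 to 2.59 against 5.09 to 6.96 CPM in M1, with overlap in M2, and its 1 tested marker, *Cd79b*, was called higher in M0 and M1. The dendritic cell list stayed between 0.12 and 2.78 CPM in all libraries, and was 0.12 to 0.501 against 0.969 to 1.47 CPM in M0. The stromal list summed to 16.1 to 16.8 against 1.02 to 14.2 CPM in M1. It overlapped in M0 (12.5 to 15.8 against 0.738 to 17.5 CPM) and in M2 (0.0839 to 14 against 1.06 to 5.99 CPM). Of its 4 tested markers, 1 was called higher in M0 and 0 were called in M1 or M2. The part of these lists in the receptor results was not tested.

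**Figure D1:**
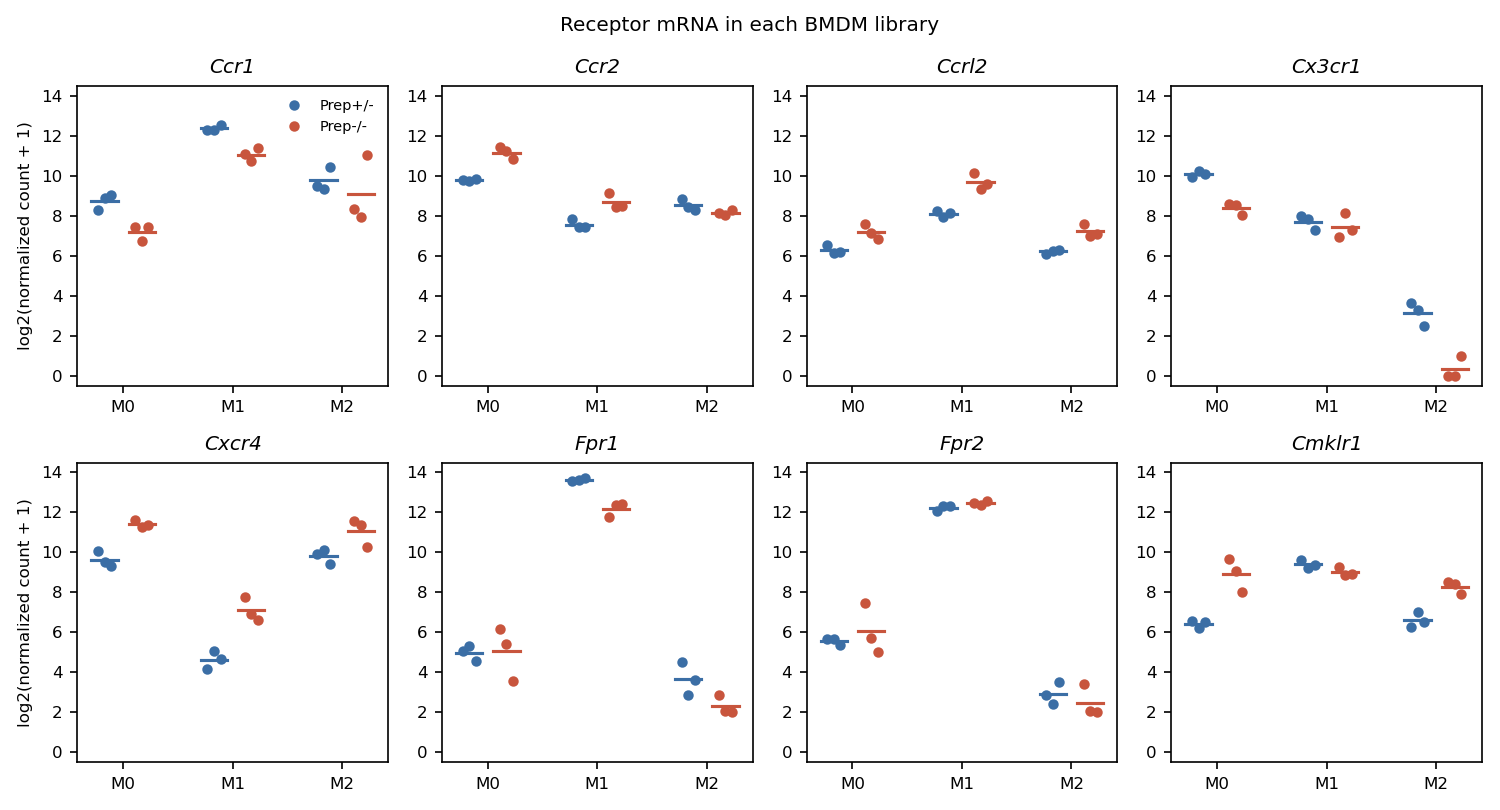
Receptor mRNA in each library, as log2(normalized count + 1) on the vertical axis, by state and genotype; each point is 1 library, in the order of replicates 1 to 3, and each short line is the mean of the 3 log2 values. *Cxcr4* of Prep-/- BMDMs lies above that of Prep+/- BMDMs in all 3 states, *Fpr1* and *Fpr2* are high in M1 only among the 3 states, and replicate 3 of Prep-/- M2 stands far above the other 2 for *Ccr1* (2086 against 325 and 248 normalized counts).

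The genes of *Fpr1* and *Fpr2* are neighbours that point away from each other, and they had the closest profiles of any pair of receptors. *Fpr1* lies on chromosome 17 at 18096733 to 18104202 on the minus strand and *Fpr2* at 18108070 to 18114215 on the plus strand (GRCm39, GENCODE annotation), with 3868 bases between them. Their log2 CPM over the 18 libraries correlated with r = 0.98 (18 libraries that share states, genotypes and depth, given as a description). The start regions of this pair are shown because they face each other across the space between the genes, and that of *Ccr1* because it is the other receptor with a letter match to the motif of PU.1, a transcription factor of macrophage identity that the study examined beside PREP. Each runs from 250 bases before the annotated transcript start to 3 bases after it, 5′ to 3′ on the strand of the gene, read from the GRCm39 genome, and capitals mark GAGGAA or its reverse complement.
Fpr1, chr17:18104200-18104452, minus strand: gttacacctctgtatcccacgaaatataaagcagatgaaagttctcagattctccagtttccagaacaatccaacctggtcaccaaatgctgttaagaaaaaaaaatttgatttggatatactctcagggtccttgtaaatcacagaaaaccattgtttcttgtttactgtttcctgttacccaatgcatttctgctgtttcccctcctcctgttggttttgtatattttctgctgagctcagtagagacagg
Fpr2, chr17:18107820-18108072, plus strand: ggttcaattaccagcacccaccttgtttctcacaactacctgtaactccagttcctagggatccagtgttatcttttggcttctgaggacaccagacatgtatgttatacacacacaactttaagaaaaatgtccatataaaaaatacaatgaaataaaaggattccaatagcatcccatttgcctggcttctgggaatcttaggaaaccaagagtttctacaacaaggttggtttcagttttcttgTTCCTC
Ccr1, chr9:123768732-123768984, minus strand: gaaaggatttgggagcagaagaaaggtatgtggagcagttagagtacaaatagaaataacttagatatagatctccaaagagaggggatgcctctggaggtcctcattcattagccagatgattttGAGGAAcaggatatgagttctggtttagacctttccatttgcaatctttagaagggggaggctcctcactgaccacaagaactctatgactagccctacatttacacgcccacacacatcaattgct
Over windows of 250 bases before to 50 after the start, GAGGAA was found on either strand in 2 of the 8 receptors, with its first base at -124 on the given strand of *Ccr1* and at -3 on the opposite strand of *Fpr2*, where it runs across the start. The same letters were in 27.5% of the 21757 promoter windows of the same length. A loose NF-kappaB type motif was in 0 of the 8 windows and in 1.8% of all, and a STAT6 type motif in 0 of 8 and in 6.8%. A match is a description of the letters only, and the absence of one says only that these letters are not in this window.

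*Fpr1* was the receptor that rose furthest with LPS, and Prep-/- BMDMs reached a lower level. In M0 the 3 Prep+/- libraries held 32.8, 39.3 and 22.9 normalized counts and the 3 Prep-/- libraries 71.3, 41.6 and 10.7. In M1 they held 12240, 12590 and 13400 against 3468, 5272 and 5542 for Prep-/-. In M2 they held 21.7, 6.21 and 11.3 against 6.39, 3.17 and 3.04. The genotypes overlapped in M0 and M2, and in M1 every Prep-/- library lay below every Prep+/- library. With LPS, *Fpr1* rose by 8.65 on the log2 scale in Prep+/- BMDMs (SE 0.44, adjusted p = 2.95e-10), which is 401-fold, and by 6.85 in Prep-/- BMDMs (SE 0.41, adjusted p = 1.52e-09), which is 116-fold. Without replicate 1 of Prep-/- M0, the highest of that group, the latter rise was 7.47 (adjusted p = 4.15e-09). In M1, *Fpr1* was 2.68-fold lower in Prep-/- BMDMs (log2 -1.42, SE 0.31, adjusted p = 0.00247), and it kept this call under all 15 alternatives run for it. The effect of the knockout in M0 was 0.38 (95% interval -0.56 to 1.31, adjusted p = 0.507) and in M2 -1.61 (95% interval -3.30 to 0.08, adjusted p = 0.154). The difference between the effects in M1 and M0 was -1.80 on the log2 scale (SE 0.54, adjusted p = 0.0228). That call was lost without replicate 3 of Prep+/- M0 (adjusted p = 0.0696) or without replicate 1 of Prep-/- M0 (adjusted p = 0.12). A list of 11 granulocyte markers moved in the same direction in M1, with a summed level of 227 to 283 CPM in Prep+/- and 68.4 to 97.5 CPM in Prep-/- libraries, of which 2 of the 6 tested were called lower. Its part in the result for *Fpr1* was not tested.

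*Fpr2* rose with LPS in both genotypes and was the receptor with no call between them in any state. Without stimulus the Prep+/- libraries held 50.2, 50.1 and 39.9 normalized counts and the Prep-/- libraries 179, 52.3 and 31.3. LPS brought them to 4363, 5181 and 5099 against 5677, 5355 and 6096. After IL-4 with IL-13 they held 6.31, 4.44 and 10.4 against 9.58, 3.17 and 3.04. The genotypes overlapped in M0 and M2. In M1 the Prep-/- libraries all lay above the Prep+/- libraries, by a fold of 1.17 (log2 0.23, 95% interval -0.47 to 0.92, adjusted p = 0.611). The spread in Prep-/- M0 was wide, and the effect there (log2 0.89, adjusted p = 0.0943) passed the test when replicate 2 (1.14, adjusted p = 0.0434) or replicate 3 (1.29, adjusted p = 0.00671) of that group was left out, but was -0.15 (adjusted p = 0.671) without replicate 1, the library at 179. LPS raised *Fpr2* 104-fold in Prep+/- BMDMs (log2 6.71, SE 0.44, adjusted p = 4.20e-09) and 65.8-fold in Prep-/- BMDMs (log2 6.04, SE 0.42, adjusted p = 8.26e-09). IL-4 with IL-13 lowered it in Prep+/- (log2 -2.72, SE 0.62, adjusted p = 0.00495) and in Prep-/- BMDMs (log2 -4.02, SE 0.63, adjusted p = 8.57e-05), to levels of 3 to 11 counts a library. Without replicate 1 of Prep-/- M0 the changes in Prep-/- BMDMs were 7.08 with LPS (adjusted p = 9.60e-11) and -2.98 with IL-4 and IL-13 (adjusted p = 1.47e-05), and the latter was -4.75 (adjusted p = 0.000269) without replicate 1 of Prep-/- M2. Between the transcripts of *Fpr2* and *Fpr3*, 1309 bases aligned at 87.0% identity and the genes overlap on the same strand, and a predicted gene that is not in the table, *Gm5966*, aligned at 95.8% over 1037 bases, so how the counting shared reads between them is uncertain. *Fpr3* was at 0 counts in all libraries of M0 and M2. With LPS, *Fpr3* was called higher in both genotypes (adjusted p = 0.00196 in Prep+/- and 0.000622 in Prep-/-). The uncertainty over shared reads therefore holds in M1, where the genotype effect on *Fpr3* did not pass (log2 0.99, SE 0.65, adjusted p = 0.266).

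Measured per length, which allows a comparison between genes, the formyl peptide receptors led the 8 in M1, whereas *Fpr1* was the lowest of the 8 in M0 of both genotypes. In Prep+/- M1, *Fpr1* stood at 455 ± 21.2 CPM per kilobase (kb) of transcript (SD, n = 3) and *Fpr2* at 209 ± 19.2, whereas in Prep-/- M1 *Fpr2* at 244 ± 15.9 stood above *Fpr1* at 170 ± 40.2 (CPM per kb). In M0, *Cxcr4* had the highest level per kb in both genotypes, at 28.5 ± 8.25 in Prep+/- and 95.4 ± 10.9 CPM per kb in Prep-/- BMDMs. In M0 of Prep+/- BMDMs it was followed by *Cx3cr1* at 13.5 ± 1.31 and *Ccr2* at 10.8 ± 0.362 CPM per kb. In M0 of Prep-/- BMDMs the second was *Ccr2* at 28.6 ± 5.66, then *Cmklr1* at 8.68 ± 4.43, and *Cx3cr1* came next at 4.23 ± 0.846 CPM per kb. M2 was again led by *Cxcr4*, at 31.7 ± 7.30 in Prep+/- and 79.9 ± 32.2 CPM per kb in Prep-/- BMDMs.

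**Figure D2:**
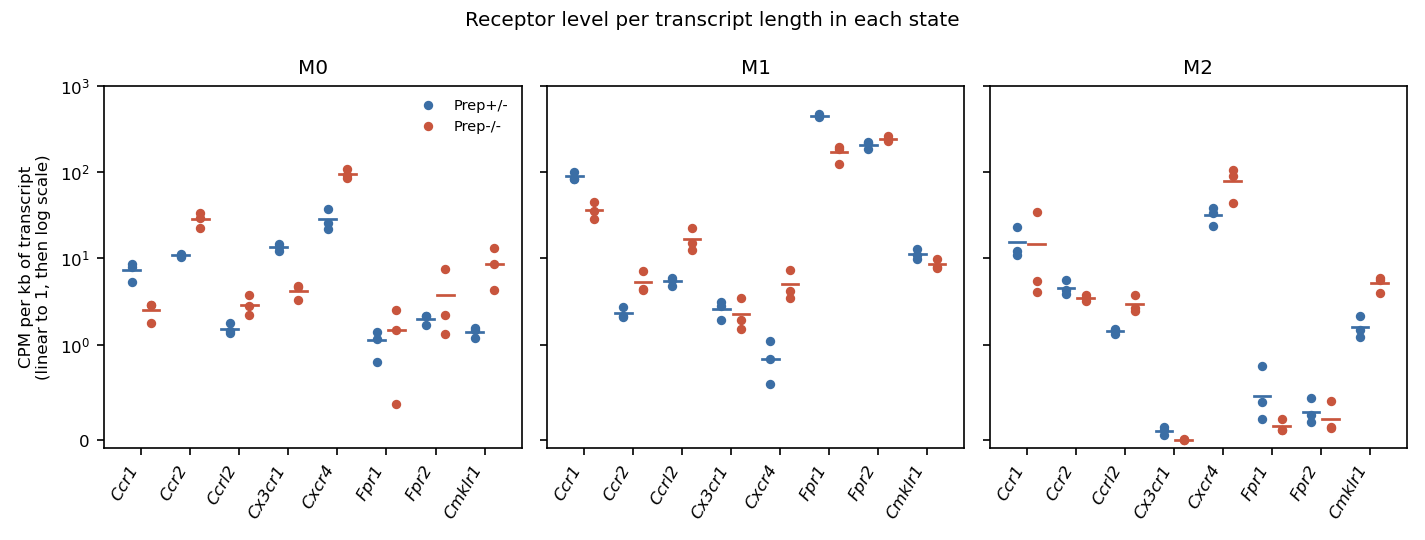
Level of each receptor as CPM per kb of transcript (vertical axis, linear up to 1 and logarithmic above) in M0, M1 and M2; points are single libraries and short lines the mean of 3. *Fpr1* and *Fpr2* lead in M1 (455 and 209 CPM per kb in Prep+/-, 170 and 244 in Prep-/-), and *Cxcr4* leads in M0 and M2 of both genotypes.

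*Ccr1*, a receptor for CCL3, CCL5, CCL6 and CCL9, rose with LPS in both genotypes and was lower in 8 of 9 Prep-/- libraries than in every Prep+/- library of the same state. Its gene lies on chromosome 9 at 123762161 to 123768734 (minus strand, 2 exons), 133248 bases from *Ccr2*. In M0 the Prep+/- libraries held 317, 483 and 520 normalized counts and the Prep-/- libraries 172, 108 and 174. With LPS these became 5015, 5044 and 6047 against 2159, 1703 and 2677. With IL-4 and IL-13 they were 730, 660.4 and 1404 against 325, 248 and 2086. The genotypes did not overlap in M0 or M1, and in M2 replicate 3 of Prep-/- was higher than all 3 Prep+/- libraries while the other 2 were lower than all of them. *Ccr1* was 2.92-fold lower in Prep-/- M0 (log2 -1.55, SE 0.59, adjusted p = 0.0403), and this call was lost when any of 5 of the 6 M0 libraries was left out (adjusted p = 0.0631 to 0.115). These were replicates 2 and 3 of Prep+/- M0 and replicates 1, 2 and 3 of Prep-/- M0. In M1 it was 2.46-fold lower without passing the test (log2 -1.30, SE 0.55, adjusted p = 0.073), and it passed when the fit held only the M1 libraries (adjusted p = 0.000196). In M2 the log2 effect was -0.07 (95% interval -1.23 to 1.09, adjusted p = 0.946), and without replicate 3 of Prep-/- M2, a library that stood apart in general, it was -1.70 (adjusted p = 0.000808). The shared fit takes 1 estimate of the spread per gene from all 18 libraries, and without that library it gave *Ccr1* an adjusted p of 0.000313 in M0 and 0.00114 in M1 at log2 effects of -1.55 and -1.30.

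The response of *Ccr1* to LPS was 12.2-fold in Prep+/- BMDMs (log2 3.61, SE 0.60, adjusted p = 8.93e-05) and 14.4-fold in Prep-/- BMDMs (log2 3.85, SE 0.62, adjusted p = 6.21e-05), and the difference between the effects of the knockout in M1 and M0 was 0.25 on the log2 scale (95% interval -1.43 to 1.92, adjusted p = 0.844). With IL-4 and IL-13 it rose by 2.56 in Prep-/- BMDMs (SE 0.60, adjusted p = 0.00255), which fell to 0.92 (adjusted p = 0.0324) without replicate 3 of Prep-/- M2. In Prep+/- BMDMs the M2 libraries lay above the M0 libraries at 1.08 (SE 0.56, adjusted p = 0.207), which passed when only the libraries compared were fitted (adjusted p = 0.0123) or without replicate 3 of Prep-/- M2 (adjusted p = 0.00745). Ordered by mean, Prep+/- M1 was followed by Prep-/- M1, Prep+/- M2, Prep-/- M2, Prep+/- M0 and Prep-/- M0, and Prep-/- M2 overlapped both of its neighbours.

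*Ccr2*, the receptor for CCL2, CCL7 and CCL12, was higher in Prep-/- BMDMs in M0 and M1 but not in M2. In M0 the Prep+/- libraries held 878, 856 and 914 normalized counts and the Prep-/- libraries 2759, 2403 and 1844. The M1 libraries held 226, 173 and 174 against 576, 350 and 365. The M2 libraries held 455, 354 and 316 against 282, 261 and 309. The genotypes did not overlap in any state, with Prep-/- above in M0 and M1 and below in M2. The fold was 2.65 in M0 (log2 1.40, SE 0.19, adjusted p = 2.25e-05) and 2.25 in M1 (log2 1.17, SE 0.20, adjusted p = 0.000531), and in M2 the log2 effect was -0.40 (95% interval -0.81 to 0.01, adjusted p = 0.147). The effect in M2 minus that in M0 was -1.80 on the log2 scale (SE 0.27, adjusted p = 0.00105), a call held under all 19 alternatives run for it.

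Both stimuli lowered *Ccr2* in both genotypes. LPS lowered it 4.62-fold in Prep+/- (log2 -2.21, SE 0.20, adjusted p = 1.40e-07) and 5.43-fold in Prep-/- BMDMs (log2 -2.44, SE 0.20, adjusted p = 3.76e-08). IL-4 with IL-13 lowered it 2.35-fold in Prep+/- (log2 -1.23, SE 0.19, adjusted p = 0.000192) and 8.21-fold in Prep-/- BMDMs (log2 -3.04, SE 0.20, adjusted p = 6.60e-09). By mean, Prep-/- M0 was followed by Prep+/- M0, Prep-/- M1, Prep+/- M2, Prep-/- M2 and Prep+/- M1, and among these neighbours Prep-/- M1 and Prep+/- M2 overlapped. The summed level of 6 monocyte markers, which include *Ly6c2*, was 31.3 to 37 CPM in Prep+/- M0 and 49 to 106 CPM in Prep-/- M0, and 71.4 to 98.3 against 201 to 260 CPM in M2. In M1 it was 53.1 to 57.2 CPM in Prep+/- and 21 to 26.9 CPM in Prep-/- BMDMs. It thus moved with *Ccr2* in M0, opposite to it in M1, and was higher in Prep-/- M2 where *Ccr2* was not, and its part in the result was not tested.

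*Cx3cr1*, the fractalkine receptor, was highest without stimulus and nearly absent after IL-4 with IL-13. In M0 the Prep+/- libraries held 991, 1203 and 1104 normalized counts and the Prep-/- libraries 391, 376 and 265. After LPS the levels were 253, 227 and 157 against 123, 282 and 155. After IL-4 with IL-13 they were 11.7, 8.88 and 4.72 normalized counts in Prep+/- BMDMs, from 13, 10 and 5 counts, and the Prep-/- libraries held 0, 0 and 1 counts. The genotypes were separate in M0 and M2 and overlapped in M1. The knockout effect in M0 was a 3.20-fold lower level (log2 -1.68, SE 0.26, adjusted p = 7.92e-05), and in M1 it was -0.19 (95% interval -0.76 to 0.39, adjusted p = 0.613). The difference between M1 and M0 was 1.49 on the log2 scale (SE 0.37, adjusted p = 0.009). In M2, *Cx3cr1* was at least 2.69-fold lower in Prep-/- BMDMs (adjusted p = 0.00731), with 3 counts in each library, a mean of 3.14 normalized counts, as the floor that a count of 0 allows, which covers counting error only.

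LPS lowered *Cx3cr1* 5.17-fold in Prep+/- BMDMs (log2 -2.37, SE 0.27, adjusted p = 1.59e-06) and 1.84-fold in Prep-/- BMDMs (log2 -0.88, SE 0.27, adjusted p = 0.00973), and the second call was lost without replicate 1 of Prep-/- M1 (log2 -0.65, adjusted p = 0.0544). IL-4 with IL-13 lowered it 128-fold in Prep+/- BMDMs (log2 -7.00, SE 0.37, adjusted p = 1.49e-09) and at least 109.5-fold in Prep-/- BMDMs (adjusted p = 2.73e-09). By mean, Prep+/- M0 was followed by Prep-/- M0, Prep+/- M1, Prep-/- M1, Prep+/- M2 and Prep-/- M2, and the 2 M1 groups overlapped. The gene lies on chromosome 9 at 119877749 to 119898945 (minus strand). The annotation places a long non-coding RNA, *Gm33858*, over the upstream end of this span on the other strand, and it is not in the table.

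*Cxcr4*, the CXCL12 receptor, was higher in Prep-/- BMDMs in all 3 states and fell with LPS in both genotypes. In M0 the Prep+/- libraries held 1089, 748 and 632 normalized counts and the Prep-/- libraries 3103, 2495 and 2652. LPS left 17.1, 32.1 and 24.4 against 215, 121 and 99.1. In M2 the libraries held 962, 1097 and 684 against 3021, 2636 and 1255. No Prep-/- library overlapped the Prep+/- libraries of its state. Without stimulus the level was 3.34-fold higher (log2 1.74, SE 0.31, adjusted p = 0.000249). With LPS it was 5.89-fold higher (log2 2.56, SE 0.43, adjusted p = 0.000475), and with IL-4 and IL-13 it was 2.52-fold higher (log2 1.33, SE 0.31, adjusted p = 0.00444). The effect did not pass a test of difference between states, at 0.82 for M1 minus M0 (95% interval -0.32 to 1.95, adjusted p = 0.279) and -0.41 for M2 minus M0 (95% interval -1.31 to 0.49, adjusted p = 0.585). All 3 calls held under each of the 14 or 15 alternatives run for them.

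LPS lowered *Cxcr4* 33.5-fold in Prep+/- BMDMs (log2 -5.06, SE 0.41, adjusted p = 4.23e-08) and did so in Prep-/- BMDMs as well (log2 -4.25, SE 0.35, adjusted p = 5.19e-08). M2 did not differ from M0 past the threshold, with log2 values of 0.15 (95% interval -0.49 to 0.79, adjusted p = 0.773) in Prep+/- and -0.26 (95% interval -0.89 to 0.38, adjusted p = 0.514) in Prep-/- BMDMs. In order of mean level, Prep-/- M0 and Prep-/- M2 overlapped, as did Prep+/- M2 and Prep+/- M0, and Prep-/- M1 and Prep+/- M1 came last without overlap. The gene is the only one of the 8 on chromosome 1, at 128515936 to 128520044 (minus strand, 2 exons).

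*Cmklr1*, the chemerin receptor, was higher in Prep-/- BMDMs in M0 and M2 and not in M1, where Prep+/- BMDMs had raised it with LPS. In M0 the Prep+/- libraries held 95.5, 72.7 and 89.9 normalized counts and the Prep-/- libraries 804, 532 and 261. In M1 they held 783, 603 and 667 against 608, 471 and 489. In M2 they held 75.8, 130.5 and 91.6 against 361, 344 and 244. The genotypes were separate in M0 and M2 and overlapped in M1. The fold was 6.19 in M0 (log2 2.63, SE 0.32, adjusted p = 9.39e-06), the largest rise among the 8 receptors in that state, and 3.18 in M2 (log2 1.67, SE 0.31, adjusted p = 0.000999). In M1 the log2 effect was -0.39 (95% interval -0.999 to 0.22, adjusted p = 0.302). The effect in M1 minus that in M0 was -3.02 on the log2 scale (SE 0.43, adjusted p = 0.000167), and that in M2 minus M0 was -0.96 (SE 0.44, adjusted p = 0.176).

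LPS raised *Cmklr1* 7.96-fold in Prep+/- BMDMs (log2 2.99, SE 0.32, adjusted p = 8.09e-07), while in Prep-/- BMDMs the log2 change was -0.03 (95% interval -0.64 to 0.58, adjusted p = 0.946). With IL-4 and IL-13 the log2 change was 0.21 in Prep+/- BMDMs (95% interval -0.48 to 0.90, adjusted p = 0.707). In Prep-/- BMDMs it fell by 0.75 on the log2 scale (SE 0.29, adjusted p = 0.0469), a call lost in 7 of the 13 alternatives run for it (adjusted p up to 0.352) which include leaving out the library that stood apart in M2 (-0.59, adjusted p = 0.16), and held without the one that stood apart in M0 (-1.08, adjusted p = 0.00111). By mean, Prep+/- M1, Prep-/- M0 and Prep-/- M1 came first and overlapped with their neighbours, then Prep-/- M2, and last Prep+/- M2 and Prep+/- M0, which overlapped. A long non-coding RNA on the other strand, *Gm15736*, lies within the gene (chromosome 5, 113750358 to 113788509, minus strand) and is not in the table.

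*Ccrl2*, which presents chemerin without signalling, was higher in Prep-/- BMDMs in all 3 states. In M0 the Prep+/- libraries held 91.6, 69.3 and 73.0 normalized counts and the Prep-/- libraries 192, 143 and 112. In M1 they held 303, 246 and 285 against 1152, 649.9 and 767. In M2 they held 68.6, 75.5 and 78.3 against 194, 126 and 136. No Prep-/- library overlapped the Prep+/- libraries of its state. The excess in Prep-/- BMDMs was 1.91-fold without stimulus (log2 0.93, SE 0.24, adjusted p = 0.00412), 3.08-fold with LPS (log2 1.62, SE 0.22, adjusted p = 0.000122) and 2.05-fold with IL-4 and IL-13 (log2 1.03, SE 0.24, adjusted p = 0.00496). Each call held under all 14 or 15 alternatives. The difference of the effect between M1 and M0 was 0.69 (95% interval 0.00 to 1.37, adjusted p = 0.131). LPS raised *Ccrl2* 3.57-fold in Prep+/- (log2 1.84, SE 0.24, adjusted p = 6.55e-06) and 5.75-fold in Prep-/- BMDMs (log2 2.52, SE 0.23, adjusted p = 1.51e-07). IL-4 with IL-13 gave log2 changes of -0.07 (95% interval -0.59 to 0.45) and 0.03 (95% interval -0.46 to 0.52), neither of which passed the test (adjusted p = 0.879 and 0.931). By mean, the 2 M1 groups came first without overlap, Prep-/- M2 and Prep-/- M0 overlapped in the middle, and so did Prep+/- M0 and Prep+/- M2 at the end.

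**Figure D3:**
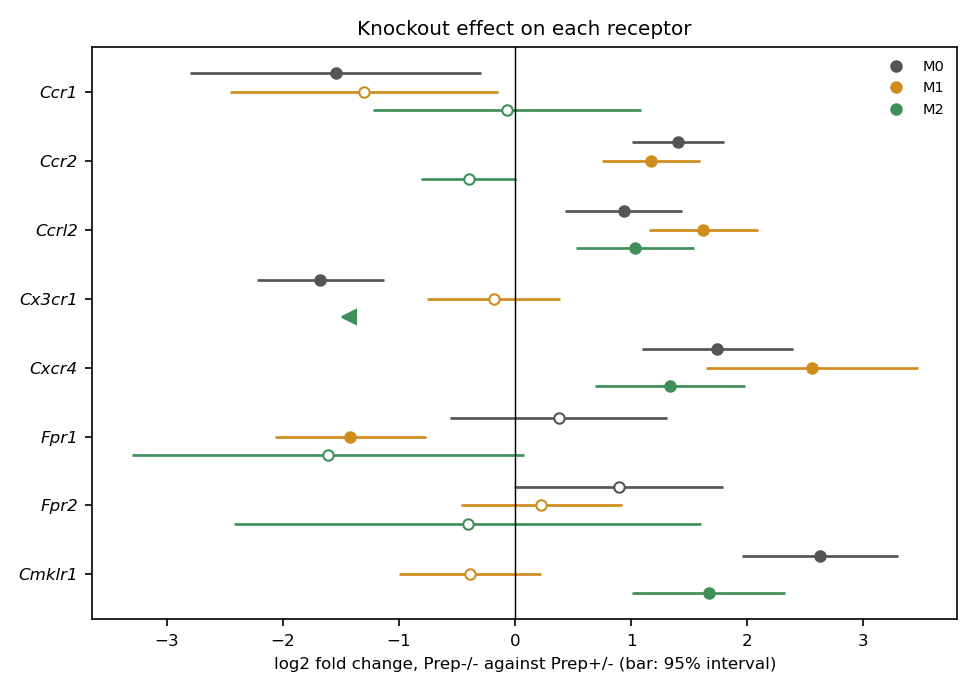
Log2 fold change of each receptor between Prep-/- and Prep+/- BMDMs (horizontal axis, above 0 is higher in Prep-/-), with the 95% interval of the edgeR fit; filled points passed the test, open points did not, and the triangle of *Cx3cr1* in M2 is the bound of at least 2.69-fold lower. *Ccrl2* and *Cxcr4* lie to the right of 0 in all 3 states, and *Cmklr1* is at 2.63 in M0 and at -0.39 in M1.

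Taken by stimulus, LPS moved nearly every receptor and IL-4 with IL-13 moved few upwards. In Prep+/- BMDMs, LPS raised 5 receptors (*Ccr1*, *Fpr1*, *Fpr2*, *Cmklr1*, *Ccrl2*) and lowered 3 (*Ccr2*, *Cx3cr1*, *Cxcr4*), 8 of 8 against 37.7% of all genes (16.7% higher, 20.9% lower). In Prep-/- BMDMs it raised 4 and lowered 3, *Cmklr1* being the one that did not pass, against 42% of all genes (20.9% higher, 21% lower). In Prep+/- M2, 0 rose and 3 fell (*Ccr2*, *Cx3cr1*, *Fpr2*) by edgeR, against 12.9% of all genes (6.09% higher, 6.77% lower), and 0 rose at an unadjusted p under 0.05 or by DESeq2. In Prep-/- M2, 1 rose (*Ccr1*) and 5 fell (*Ccr2*, *Cx3cr1*, *Fpr1*, *Fpr2*, *Cmklr1*), against 30.2% (14.7% higher, 15.5% lower). *Fpr1* fell by 3.26 on the log2 scale in Prep-/- M2 (SE 0.66, adjusted p = 0.00079; -2.64 without replicate 1 of Prep-/- M0, adjusted p = 0.00438), and in Prep+/- M2 the value was -1.27 (95% interval -2.38 to -0.16, adjusted p = 0.11). These comparisons share the M0 libraries of each genotype. The effect of the knockout itself differed between M1 and M0 for *Cx3cr1* (higher) and *Fpr1* and *Cmklr1* (lower), 3 of 8 against 21.1% of all genes (12% higher, 9.15% lower), and between M2 and M0 for *Ccr2* (lower), 1 of 8 against 8.66% (4.53% higher, 4.13% lower).

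**Figure D4:**
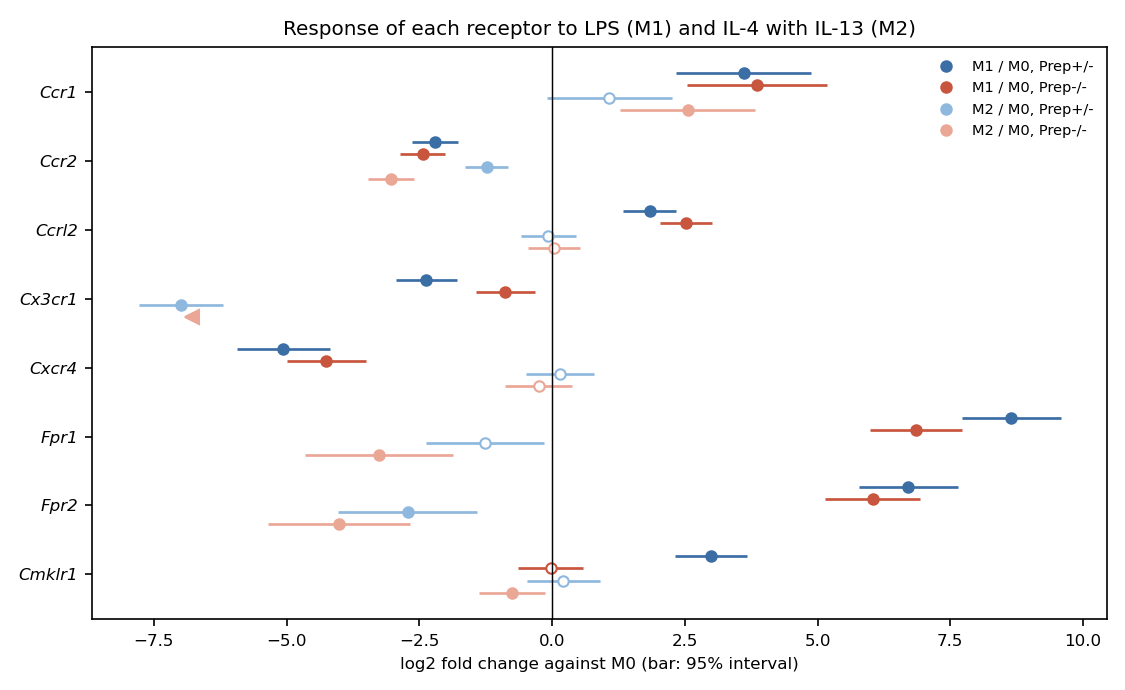
Log2 fold change of each receptor against M0 (horizontal axis) for M1 and M2 in both genotypes, with the 95% interval; filled points passed the test, and the triangle of *Cx3cr1* in Prep-/- M2 is the bound of at least 109.5-fold lower. *Fpr1* and *Fpr2* rise by 6.04 to 8.65 with LPS, and *Cmklr1* rises by 2.99 in Prep+/- but stands at -0.03 in Prep-/- BMDMs.

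Ligands for these receptors are made by macrophages themselves, and 16 of 18 listed ligands were tested. Prep-/- BMDMs held more of 4 ligands and less of 5 in M0, more of 1 and less of 6 in M1, and more of 4 and less of 4 in M2 (9, 7 and 8 of 16, against 32.6%, 22.5% and 16.2% of all genes), with median log2 effects of -0.18, -0.70 and 0.06. *Ccl2*, a CCR2 ligand that attracts monocytes, was at 2798 ± 1664 normalized counts in Prep+/- M0 and 173 ± 53.8 in Prep-/- M0 (SD, n = 3), a called fall (log2 -4.02, SE 0.82, adjusted p = 0.000786). The log2 effect on *Ccl2* was -1.63 in M1 (adjusted p = 0.089) and -1.53 in M2 (adjusted p = 0.136). The other CCR2 ligands, named for their receptor, were *Ccl7*, lower in all 3 states (log2 -3.81, -1.83 and -2.55 in M0, M1 and M2), and *Ccl12*, lower in M2 (log2 -2.82, SE 0.35, adjusted p = 4.22e-05) with values of -0.84 and -0.52 in M0 and M1 that did not pass. *Ccl8* was higher in M1 (log2 2.61, SE 0.48, adjusted p = 0.000893) and in M2 (log2 3.19, SE 0.52, adjusted p = 0.000349), and in M0 its Prep+/- libraries held at most 1 count. *Ccl5*, a ligand of CCR1, was higher in Prep-/- M0 (log2 1.62, SE 0.55, adjusted p = 0.0234) with overlapping libraries, and LPS raised it by 10.16 on the log2 scale in Prep+/- BMDMs (SE 0.72, adjusted p = 8.59e-09). With LPS, 11 of the 16 ligands rose and 1 fell in Prep+/- BMDMs, and 9 rose and 4 fell in Prep-/- BMDMs, against 37.7% and 42% of all genes called. The chromatin protein and CXCL12 partner *Hmgb1* was the largest called fall with LPS among ligands with at least 5 CPM (log2 -1.61 with 1 working copy of *Prep* and -1.19 with none). *Cxcl12* and *Rarres2*, which encode the ligands of CXCR4 and CMKLR1, did not pass the filter on low counts.

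Other chemokine receptors include *Ccr3* and *Cxcr3*, for which no call was made between genotypes: the log2 effects in M0, M1 and M2 were -0.58, -0.75 and 0.28 for *Ccr3* (adjusted p = 0.409, 0.273 and 0.756) and -0.10, -0.08 and -0.69 for *Cxcr3* (adjusted p = 0.828, 0.915 and 0.22). With LPS, *Ccr3* rose in Prep+/- (log2 1.85, SE 0.54, adjusted p = 0.00875) and in Prep-/- BMDMs (log2 1.68, SE 0.55, adjusted p = 0.016), and *Cxcr3* fell in both (log2 -3.82, SE 0.42, adjusted p = 9.62e-07 in Prep+/-, and log2 -3.80, SE 0.41, adjusted p = 1.02e-06 in Prep-/-). *Ccr7*, a receptor of mature dendritic cells, did not pass the filter.

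Of 22 other chemoattractant receptors, 14 were tested. The knockout raised 2 and lowered 1 in M0, raised 4 and lowered 2 in M1, and raised 1 and lowered 2 in M2, which is 3, 6 and 3 of 14 against 32.6%, 22.5% and 16.2% of all genes. *Ptafr*, the receptor for platelet-activating factor, was higher in all 3 states, in M0 (log2 1.05, SE 0.16, adjusted p = 5.23e-05), M1 (log2 1.01, SE 0.16, adjusted p = 0.000264) and M2 (log2 1.71, SE 0.16, adjusted p = 5.27e-06). The complement receptor *C5ar1* was lower in M1 (8782 ± 2662 against 19810 ± 1094 normalized counts, log2 -1.17, SE 0.44, adjusted p = 0.0479), and *C3ar1* was not called in any state (log2 0.39, 0.22 and -0.05). *Plaur*, the urokinase receptor, was lower in Prep-/- M1 (log2 -2.38, SE 0.54, adjusted p = 0.0033).

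Of 40 genes that carry the signal of such receptors, 38 were tested. Higher and lower calls in Prep-/- BMDMs numbered 3 and 3 without stimulus, 2 and 4 with LPS, and 4 and 5 with IL-4 and IL-13 (6, 6 and 9 of 38, against 32.6%, 22.5% and 16.2% of all genes), with median log2 effects of 0.00, -0.16 and -0.06. The named members were *Rgs10*, a brake on G protein signalling, higher in M0 (log2 1.18, SE 0.12, adjusted p = 1.79e-06), and *Elmo1*, which couples to Rac activation, lower in M0 (log2 -1.53, SE 0.16, adjusted p = 2.35e-06) and also in M2 (log2 -1.01, SE 0.16, adjusted p = 0.000237). In M1 they were *Rgs2*, another such brake, which was higher (log2 1.495, SE 0.39, adjusted p = 0.00826), and *Gna15*, a G protein alpha subunit, which was lower (log2 -0.91, SE 0.20, adjusted p = 0.00289). In M2, *Pik3r5*, the regulatory subunit of PI3K gamma, was higher (log2 1.08, SE 0.16, adjusted p = 0.000199), and *Nup85*, a nuclear pore protein also known to bind CCR2, was lower (log2 -1.10, SE 0.16, adjusted p = 0.00013), as it was in M0 (log2 -1.39, SE 0.16, adjusted p = 5.30e-06) and M1 (log2 -0.81, SE 0.16, adjusted p = 0.00142).

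**Figure D5:**
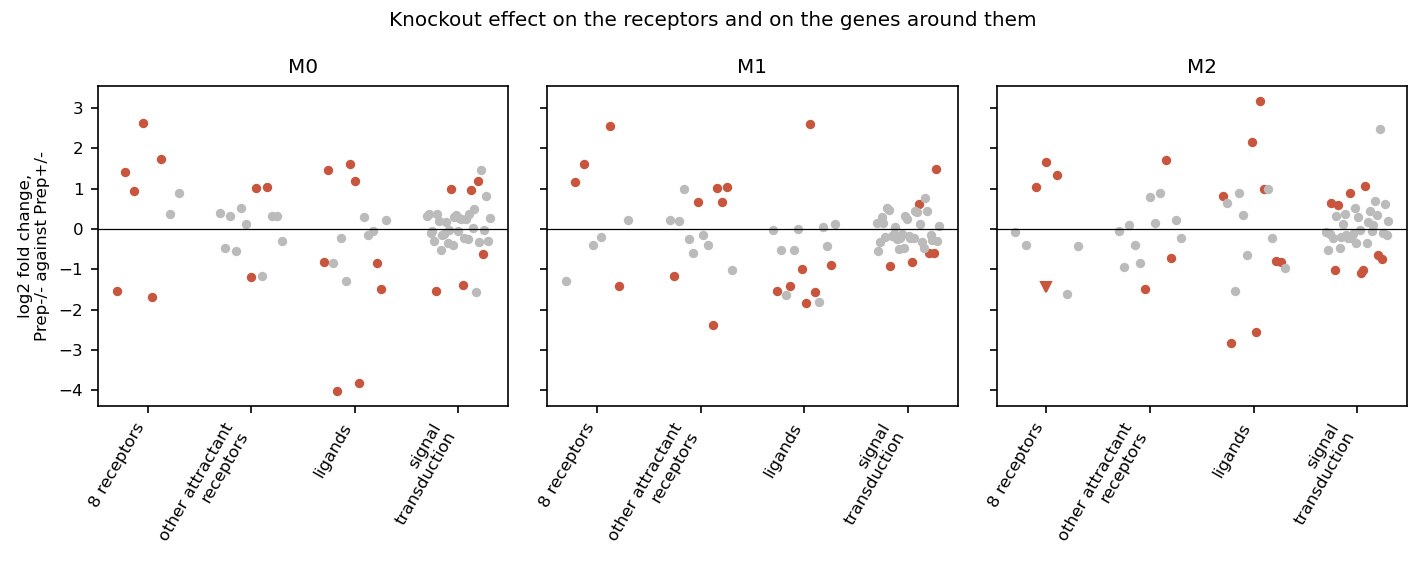
Log2 fold change between Prep-/- and Prep+/- BMDMs (vertical axis) of the 8 receptors and of the tested genes of 3 lists around them, in M0, M1 and M2; red points passed the test, grey points did not, the triangle is the bound for *Cx3cr1*, and genes with at most 3 counts in every library of a group are left out of the lists. The ligands spread widest, from -4.02 for *Ccl2* in M0 to 3.19 for *Ccl8* in M2, and most signalling genes lie near 0.

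The genes whose log2 CPM tracked each receptor most closely over the 18 libraries are given as a description, since the libraries share states and genotypes. They were *Slc2a1* (glucose transporter, r = 0.98) and *Eaf1* (r = 0.98) for *Ccr1*, *Susd3* (r = 0.96) and *Stard8* (r = 0.95) for *Ccr2*, and *Eogt* (r = 0.97) and *Gxylt1* (r = 0.95) for *Cx3cr1*. For *Cxcr4* they were *Sult1a1* (r = 0.98) and *St6gal1* (r = 0.98), for *Fpr1* the antimicrobial genes *Lcn2* (r = 0.99) and *Slpi* (r = 0.99), and for *Fpr2* *Mmp14* (r = 0.99) and *Nfkbia* (r = 0.99). For *Cmklr1* they were *Nucb1* (r = 0.97) and *Clec4a1* (r = 0.95), and for *Ccrl2* *H2-Q4* (r = 0.98) and *Atg5* (r = 0.98). Among the receptors themselves, *Cxcr4* ran opposite to *Fpr1* (r = -0.91), *Ccr1* (r = -0.90) and *Fpr2* (r = -0.84).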

How the data were processed

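Total RNA of BMDMs was sequenced (Illumina, stranded mRNA kit, paired ends). The authors trimmed reads with Trimmomatic 0.36 and aligned them with HISAT2 2.2.1.0, per the labels, to GRCm39, and deposited raw counts per gene symbol for 18 libraries. The annotation release and the strand setting of the counting are not given in the sources used here. Genotype and state in the labels set the groups. Of the sample columns, 0 were left without a sample.

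Here, edgeR 4.0.16 (R 4.3.3) was run on the deposited counts: filterByExpr on the 6 groups, TMM, 1 coefficient per group, glmQLFit and glmQLFTest over all 18 libraries (12 residual degrees of freedom, common biological coefficient of variation 0.167), with Benjamini-Hochberg adjustment over 12021 genes in each of 9 comparisons. With 3 libraries a group, this spread sets the precision. Alternatives were DESeq2 1.42.0, RLE size factors, no filter, a filter of 10 counts in 3 libraries, a replicate block, fits of only the libraries compared, and leaving out each library. After seeing the data, the 2 libraries that stood apart were also left out of comparisons that do not hold them. The test was also run on simulated counts with 1 spread for all genes and no library that stood apart. That run therefore does not bear on the 2 libraries that did. Shared replicate numbers were checked by correlating deviations from group means: same-numbered libraries gave r of 0.25 to 0.46 for Prep-/- against Prep+/- in M2 and 0.17 to 0.26 for M1 against M0 in Prep-/-, and not all over 0.1 in the other comparisons. Deviations from a group mean sum to 0, so the r values of a comparison are not independent. The r of 0.46 was that of replicate 3, which holds the Prep-/- M2 library that stood apart. These values do not establish a pairing.

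Lengths, positions and promoter windows came from GRCm39 with GENCODE annotation, which may differ from the release the authors used. CPM per kb used the median length of a gene's protein-coding transcripts. Identity between transcripts was found with blastn 2.17.0. A protein comparison was not made here. All 8 receptors are named in each comparison. Of each list, the called rise and fall of largest fold change with a mean of at least 5 CPM are named, and *Ccr7*, *C5ar1* and *C3ar1* always; for each receptor, the 2 genes of highest r. Some genes of the lists are not reported here. The receptors and lists were chosen with earlier results of these data known.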

Additional observations from a re-analysis of the deposited data

Results flagged for a closer look

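The effect of the knockout on 4 receptors differed between states by a test of that difference within the fit of all 18 libraries (edgeR's quasi-likelihood test). For *Cx3cr1* the log2 effect in M1 minus that in M0 was 1.49 (adjusted p = 0.009), from -1.68 in M0 to -0.19 in M1. For *Fpr1* the same difference was -1.80 (adjusted p = 0.0228), from 0.38 to -1.42, and the call was lost without replicate 3 of Prep+/- M0 (adjusted p = 0.0696) or replicate 1 of Prep-/- M0 (adjusted p = 0.12). For *Cmklr1* it was -3.02 (adjusted p = 0.000167), from 2.63 to -0.39. For *Ccr2* the effect in M2 minus that in M0 was -1.80 (adjusted p = 0.00105), from 1.40 to -0.40.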

How the results depend on the processing

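Of 1112 alternative values for 72 receptor results, 1081 kept their side of the threshold, 16 lost a call and 15 gained one. No called value turned direction, but some values that were not called did, such as *Fpr2* between genotypes in M0 (log2 0.89 to -0.15). DESeq2, RLE size factors, no filter and the filter of 10 counts changed 0 of 72 each. Whether replicate numbers pair the libraries is not known. In the comparisons where every same-numbered r was over 0.1, neither replicate block (all 18 libraries, or only those compared) changed a receptor call. These were Prep-/- against Prep+/- in M2 and M1 against M0 in Prep-/-. Among the other comparisons, both blocks added *Ccr1* between genotypes in M1 (adjusted p = 0.024 and 1.11e-05). Receptors called in Prep+/- M2 against M0 went from 3 to 5 with only the libraries compared, and to 5 with the replicate block of those libraries, which added *Ccr1* and *Fpr1* (adjusted p = 6.05e-06 and 0.0139 with that block). With that block *Ccr1* and *Cmklr1* in Prep-/- M2 against M0 were no longer called (adjusted p = 0.0691 and 0.116), and all genes called there fell from 3636 to 2333. For the difference of the knockout effect, M2 minus M0, all genes called went from 1041 to 555 with only the libraries compared and 664 with the replicate block, and to between 509 and 1449 leaving out 1 library (509 to 626 without replicate 2 or 3 of Prep+/- M0 or replicate 1 or 2 of Prep+/- M2). Receptors called in it ranged from 1 to 3, with *Fpr1* (adjusted p = 0.0333) and *Cmklr1* (adjusted p = 0.0198) added without replicate 3 of Prep-/- M0. All genes called between genotypes in M1 ranged from 1745, without replicate 1 of Prep-/- M1, to 2895, against 2700. The cause of these changes was not tested, beyond the fewer libraries in these fits. Depth limits *Cx3cr1*, *Fpr1* and *Fpr2* in M2, at 0 to 24 counts a library.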
